A study of Mus musculus with 12 samples.

Results

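The genes described here are 17 transcripts whose level in sorted hippocampal nuclei was lowest in the group titled Late, by a wide margin. They were chosen by their values. A gene entered when its mean normalized count was at least 50 in each of the groups titled Basal, Early and Reactivated, and when each of those means was at least 4 times the Late mean. Of 24015 rows in the table, 15668 had enough counts to be tested and 21 met both conditions. The rule sets aside small-RNA symbols, which removed Mir344g, Mir6236, Mir6982 and Snord58b and left 17 genes. Because Late levels chose the genes, their Late levels are given as descriptions without a test, and tests are given only between the other 3 groups.

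The 12 libraries are nuclear RNA-seq of 3 pools in each of the 4 groups. All came from hippocampus of ArcCreERT2 x R26R-STOP-floxed eYFP mice, genotype +/+. In these mice the Arc promoter drives a tamoxifen-dependent Cre, so eYFP marks only cells in which Arc was active while the drug was present. Per the labels' protocols, all mice spent 24 h in darkness, received 4-hydroxytamoxifen 1 h before contextual fear conditioning, and were killed 1.5 to 2 h later or on day 5 after a further 48 h in darkness, part of the day-5 mice after re-exposure to the cue. After fixation in 1% paraformaldehyde, nuclei stained for NeuN, Arc and GFP were sorted, 10000 per condition from pools of 10 to 12 mice. The titles alone separate the groups: the treatment entry is the same for all 12 libraries and gives foot shock and collection on day 0, which goes against the 5-day arm of the protocol. Which gate and collection time each title stands for, and the animals' age, are therefore not given here.

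Total counts ran from 4838166 to 11120255 per library. Transcripts of the ribosomal precursor Rn45s took 27.9% to 36.5% of the counts in Late, 18.8% to 27.7% in Reactivated and 4.72% to 12.9% in Basal and Early. With Rn45s and the mitochondrial leucyl-tRNA synthetase gene Lars2 taken out of the table, the rule gave 18 genes that included all 17, and the same genes of the set were called in the 3 comparisons without Late. Neuronal marker genes were present in all groups. The summed level of 16 dentate granule cell markers was 12487 to 19091 in Basal. It was 2694 to 5698 over the libraries of the other groups (Late 3836 to 5667). Rfx3 alone made up 2904, 2254 and 1333 of the Late sums, and 13 of the 16 fell in Late against Basal. The sum of 10 CA1 markers was 993 to 1345 in Basal and 2408 to 4099 elsewhere. That of 11 CA3 and CA2 markers was 1384 to 1735 and 2853 to 4714. The sum of 20 interneuron markers was 6726 to 8119 and 4405 to 6903. The summed level of 13 microglial markers was 5716 to 9807 in Late against 708 to 2232 in the other libraries. Within that sum Itgam lay at 3224 to 4505 and Cx3cr1 at 2381 to 5181 in Late, while the defining microglial receptor P2ry12 was at 9.25 to 19.6 there. Over all groups, Tmem119 was at 0 in 2 of the 12 libraries, whose groups are not given here. Of 8 microglial markers tested, 3 rose and 3 fell in Late against Basal. Of 10 oligodendrocyte markers tested, 3 rose and 5 fell, and the sum of 12 such markers was 4777 to 9989 in Late and 1706 to 7806 elsewhere. The part of these markers in the results was not tested, and in bulk nuclei fewer cells of a type cannot be told apart from less RNA per cell.

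Several of these genes have well-known roles. Lrrc17 encodes a secreted leucine-rich repeat protein, and Gsta3 an alpha-class glutathione transferase, an enzyme that joins glutathione to electrophiles. Smn1 encodes the core of the complex that loads Sm proteins onto spliceosomal small nuclear RNAs, and Fut8 the enzyme that adds the core fucose to N-glycans. Slfn9 belongs to the Schlafen family, many of whose members respond to interferon, and Psg28 to the pregnancy-specific glycoproteins, secreted immunoglobulin-like proteins best known from the placenta. Ttr encodes transthyretin, a thyroid hormone and retinol carrier made in the brain by the choroid plexus, and Enpp2 encodes autotaxin, which makes lysophosphatidic acid and is also strongly expressed there. RefSeq lists 10 of the 17 genes as protein coding (2900055J20Rik under Kctd16) and 6 as long noncoding RNA, and LOC100862268 could not be matched.

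Entries of the RefSeq promoter table (GRCm38.p6) were used for 11 of the 17 genes. The 250 bases before the first listed start are shown for Lrrc17, Gsta3, Psg28 and Slfn9, whose levels carry the results below. They are also shown for Slfn8, the gene beside Slfn9. No entry was used for B020014A21Rik, 2900055J20Rik, Hsbp1l1, Ttr, LOC100862268 and Enpp2. Of these, 2900055J20Rik, Hsbp1l1 and Ttr lie on a chromosome whose promoter entries were set aside here. Whether RefSeq lists promoters for them is therefore not shown. Capitals mark, on either strand, the TATA box letters TATAAA, the CCAAT box, the GC box letters GGGCGG and the AP-1 site letters TGACTCA.
Lrrc17, chr5:21543277-21543526, plus strand: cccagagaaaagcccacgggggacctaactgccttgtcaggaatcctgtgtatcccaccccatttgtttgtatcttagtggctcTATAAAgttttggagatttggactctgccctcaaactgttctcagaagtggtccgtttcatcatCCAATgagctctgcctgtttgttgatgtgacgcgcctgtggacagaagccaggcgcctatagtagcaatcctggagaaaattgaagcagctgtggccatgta
Gsta3, chr1:21240335-21240584, plus strand: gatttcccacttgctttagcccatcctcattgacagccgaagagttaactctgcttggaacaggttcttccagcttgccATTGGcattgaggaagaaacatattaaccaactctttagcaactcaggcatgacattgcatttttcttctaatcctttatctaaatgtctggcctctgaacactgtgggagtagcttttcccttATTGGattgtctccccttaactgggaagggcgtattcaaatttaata
Psg28, chr7:18432056-18432305, minus strand: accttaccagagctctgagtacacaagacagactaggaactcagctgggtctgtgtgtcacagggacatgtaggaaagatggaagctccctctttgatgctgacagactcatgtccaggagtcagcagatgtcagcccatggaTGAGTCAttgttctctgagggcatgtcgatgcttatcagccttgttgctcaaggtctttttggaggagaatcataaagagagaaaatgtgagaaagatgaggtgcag
Slfn9, chr11:82991831-82992080, minus strand: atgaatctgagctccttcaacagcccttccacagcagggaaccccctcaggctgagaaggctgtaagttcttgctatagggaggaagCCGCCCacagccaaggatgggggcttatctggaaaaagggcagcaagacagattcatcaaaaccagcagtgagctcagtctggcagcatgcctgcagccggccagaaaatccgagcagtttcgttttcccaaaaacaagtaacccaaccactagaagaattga
Slfn8, chr11:83020811-83021060, minus strand: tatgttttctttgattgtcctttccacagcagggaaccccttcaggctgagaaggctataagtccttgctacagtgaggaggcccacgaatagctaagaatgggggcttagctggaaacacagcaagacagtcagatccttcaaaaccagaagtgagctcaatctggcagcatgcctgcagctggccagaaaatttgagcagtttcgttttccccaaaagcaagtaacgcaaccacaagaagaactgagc
None of these motifs was found in all 5 windows. Over the 15 promoter entries of the 11 genes, the TATA box letters were found in 1 entry, that of Lrrc17, against 12.4% of all 32851 promoters in the table. The CCAAT letters were found in 5 of 15 entries against 33.8% of promoters, the GC box in 3 of 15 against 32.7%, the AP-1 site in 1 of 15, that of Psg28, against 4.46%, and the cyclic AMP response element letters TGACGTCA in 0 of 15 against 1.55%. The Slfn9 and Slfn8 windows are alike, with 208 of 239 aligned bases identical (87.0%). The longest run shared by 2 different genes of the set was in upstream windows of Fut8 and Smn1, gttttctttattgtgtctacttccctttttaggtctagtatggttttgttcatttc, a stretch of 56 bases that occurs in 2 of the 32851 promoters. The Fut8 window with this run is entry 3, at chr12:77388614-77388863, while entry 1 lies at chr12:77238489-77238738. Fut8 entry 4 shares another run, of 52 bases, with the same Smn1 window, and that run occurs in 5 of the 32851 promoters. Only these promoter windows were searched, so how often the runs occur elsewhere in the genome was not tested. The motif and run matches describe letters and not binding.

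Lrrc17 stood farthest apart. Its normalized count (the count divided by the library's TMM-scaled size relative to the geometric mean of all libraries) was 140, 135 and 140 in the 3 Basal libraries. It was 335, 244 and 273 in Early, and 1324, 832 and 735 in Reactivated. In Late it was 1.20, 6.61 and 0.934, from 7 reads in all (exact Poisson 95% interval 2.81 to 14.4, counting error only). Lrrc17 was thus the single gene of the set close to 0 in Late, and the other 3 groups did not overlap one another.

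Gsta3 stood at 517, 613 and 985 in the Basal libraries, at 612, 609 and 1411 in the Early ones, at 1514, 1427 and 1214 in the Reactivated ones, and at 56.4, 41.0 and 49.5 in Late. The third library of both Basal and Early was high, and only the third Early library reached the Reactivated range, while all 3 Reactivated libraries lay above all 3 Basal ones. The Late mean of Gsta3, 49.0 ± 7.76 (SD, n = 3), was 14.4 times below the Basal mean.

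Psg28 was among the more abundant genes of the set, at 1920, 2066 and 1905 in Basal and 2110, 2277 and 2222 in Early. It was at 112, 155 and 116 in Late and lay between, at 688, 1084 and 1210, in Reactivated. Smn1 took the same order, with Basal libraries at 1007, 1204 and 1286, Early libraries at 1267, 1359 and 1271, Reactivated libraries at 465, 722 and 757, and Late libraries at 106, 114 and 127. The noncoding transcript Gm14403 did so too, with Basal libraries at 798, 672 and 619, Early libraries at 732, 801 and 639, Reactivated libraries at 346, 442 and 524, and Late libraries at 92.5, 77.9 and 96.2. For each of these 3 genes the Reactivated libraries did not overlap Late, Basal or Early, and the first Reactivated library was the lowest. That library also had the highest summed glial markers of its group, with astrocyte markers at 11787 against 5355 and 6122, oligodendrocyte markers at 7806 against 3524 and 2961, and microglial markers at 2232 against 1167 and 894. Without it, all 3 genes remained called in both comparisons of Reactivated with Basal and Early.

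Slfn9 stood at 829, 943 and 1176 in the Basal libraries, at 793, 927 and 964 in the Early ones, at 580, 752 and 842 in the Reactivated ones, and at 110, 88.5 and 128 in Late. Fut8 had the highest Late level of the set, 620, 568 and 739, against 3042, 3360 and 4750 in the Basal libraries, 2868, 3779 and 4713 in the Early ones and 3425, 4025 and 4055 in the Reactivated ones. Outside Late the Fut8 libraries overlapped in all pairs of groups, and its 3 means differed by 1.03 times at most.

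Ttr stood at 1288, 1182 and 714 in the Basal libraries, at 2217, 1999 and 427 in the Early ones, at 1470, 949 and 1819 in the Reactivated ones, and at 226, 202 and 224 in Late. Enpp2 followed the same libraries, with Basal libraries at 561, 553 and 308, Early libraries at 759, 771 and 215, Reactivated libraries at 706, 431 and 617, and Late libraries at 99.7, 104 and 134. Both were lowest outside Late in the third Early library, where Gsta3, Fut8, Gm10785 and B020014A21Rik were at their highest within Early.

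The noncoding B020014A21Rik had the second-widest margin, with a Late mean of 28.1 ± 13.7 beside a Basal mean of 710 ± 149, an Early mean of 715 ± 164 and a Reactivated mean of 702 ± 58.8 (SD, n = 3). D630045M09Rik, listed as Eprn in RefSeq, had means of 39.1 ± 12.4, 470 ± 86.3, 418 ± 52.5 and 309 ± 136 in the same order. Gm10785 had the widest spread in Basal, at 1355, 1458 and 3416, and its Late libraries lay at 400, 309 and 522. The other 5 genes, 2900055J20Rik, Hsbp1l1, 4933413L06Rik, LOC100862268 and Il1bos, had Basal means from 76.7 to 273 and Late means from 13.4 to 48.2. Hsbp1l1, a gene named for its likeness to a heat shock factor binding protein, was the lowest of the set outside Late.

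**Figure D1:**
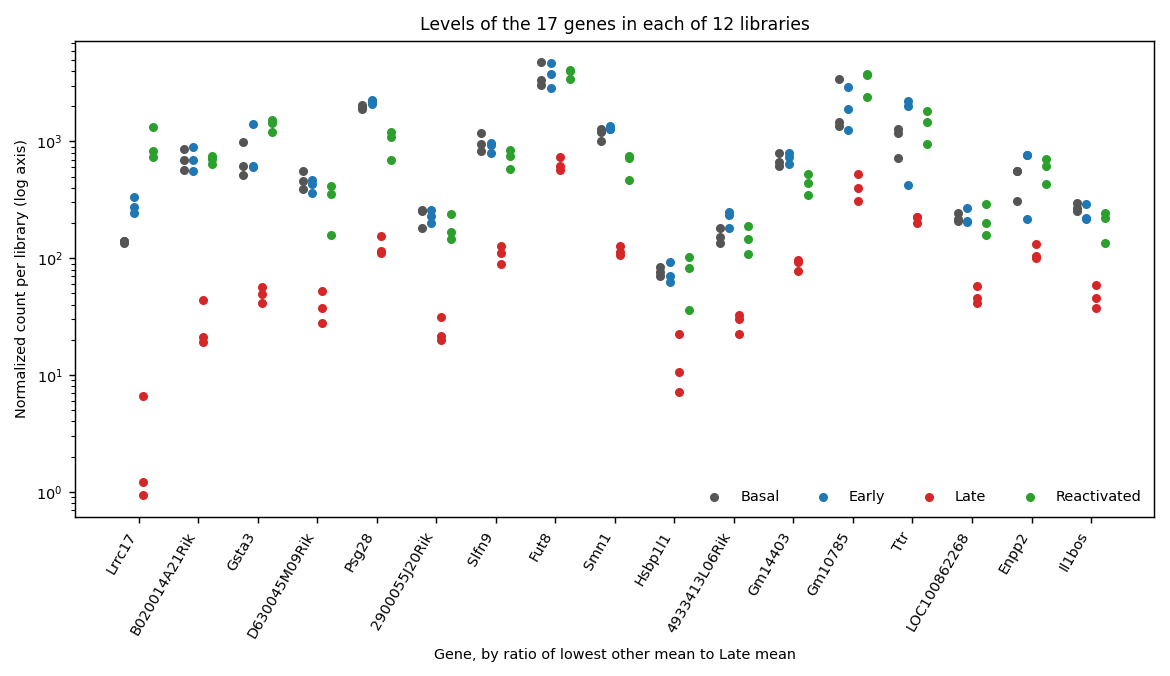
Normalized counts of the 17 genes in each of the 12 libraries, on a log axis, with genes ordered by the ratio of their lowest other mean to their Late mean. Each point is a library; Late points lie below all others for each gene, as the rule requires of the means, and Lrrc17 alone reaches levels near 1.

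The ratio of the lowest other mean to the Late mean ran from 47.4 for Lrrc17 to 4.20 for Il1bos, and was 8 or more in 3 genes and below 8 in 14. Il1bos, Enpp2 (4.21) and LOC100862268 (4.50) were just inside the limit of 4, and Slc36a1os (3.91), Glis3 (3.81) and Gm5441 (3.68) just outside. All 17 genes had at least 1 read in all 3 Late libraries, from 7 reads for Lrrc17 to 1737 for Fut8 over the group. The working description of the set as genes lost in Late therefore holds of Lrrc17 at most: the others were lower in Late and still detected. Late libraries lay below all 9 others in 17 of 17 genes, which the rule nearly fixes, against 8.85% of all genes tested. Among all genes tested, 23.7% were called lower and 25.4% higher in Late than in Basal, 20.3% lower and 22.0% higher than in Early, 10.3% lower and 12.3% higher than in Reactivated, and 4.81% lower in all 3.

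Slfn8, which was named with the set, did not enter it, because its Reactivated mean was 32.8, below 50. Its Basal libraries were at 162, 174 and 45.9, its Early libraries at 180, 197 and 108, its Reactivated libraries at 30.3, 29.04 and 39.1, and its Late libraries at 6.00, 6.61 and 11.2. Its Late mean was 4.13 times below the Reactivated mean and 16.03 times below the Basal mean. Slfn8 also fell from Basal to Reactivated, by 1.92 ± 0.42 (log2, SE; adjusted p = 0.00293), and from Early to Reactivated, by 2.29 ± 0.42 (adjusted p = 0.00242), in edgeR's quasi-likelihood test with Benjamini-Hochberg adjustment over all genes tested.

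**Figure D2:**
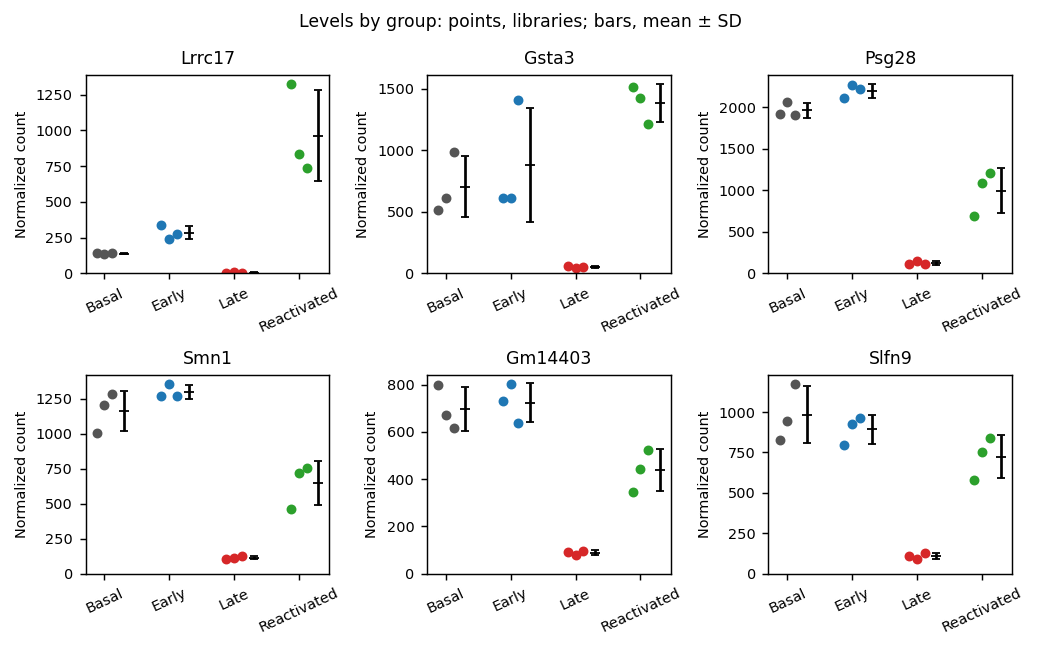
Normalized counts of Lrrc17, Gsta3, Psg28, Smn1, Gm14403 and Slfn9 by group; points are libraries and bars are the mean ± SD of 3. Reactivated is the highest group for Lrrc17 and Gsta3, and lies between Late and the other groups for Psg28, Smn1 and Gm14403.

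The comparisons that leave Late aside ask whether the set differed among the other groups. Between Early and Basal, 1 of the 17 genes passed an adjusted p of 0.05, against 6.03% of all genes tested (edgeR, as above). That gene was Lrrc17, which was higher in Early by 1.03 ± 0.24 (log2, SE; 2.05-fold; adjusted p = 0.0189). Its call was lost without the first Basal library (1.05, adjusted p = 0.0613), the second Basal library (1.02, adjusted p = 0.0818) or the first Early library (0.90, adjusted p = 0.0877), and with limma-trend (1.02, adjusted p = 0.104). Psg28 and 4933413L06Rik also had Early libraries that did not overlap Basal, with adjusted p of 0.771 and 0.213; libraries did not overlap in 3 of the 17 genes and in 23.4% of all genes.

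Between Reactivated and Basal, 5 of the 17 genes passed, against 39.4% of all genes tested (20.6% higher and 18.8% lower), so the count in the set does not stand above the background. Lrrc17 rose by 2.80 ± 0.25 (log2, SE; 6.98-fold; adjusted p = 9.93e-06) and Gsta3 by 0.97 ± 0.30 (1.97-fold; adjusted p = 0.0183). Psg28 fell by 0.98 ± 0.18 (adjusted p = 0.00110), Smn1 by 0.84 ± 0.17 (adjusted p = 0.00181) and Gm14403 by 0.67 ± 0.17 (adjusted p = 0.00639). The Gsta3 call was lost without the first Basal library (0.78, adjusted p = 0.0793) or the second (0.88, adjusted p = 0.0740), and with plain library totals (0.50, adjusted p = 0.0914). Slfn9 differed by -0.44 ± 0.18 (adjusted p = 0.0614) and did not pass.

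Between Reactivated and Early, 4 of the 17 genes passed, against 26.2% of all genes tested. The count was 7 without the third Early library, 8 without the third Basal and Early libraries together and 8 with plain library totals, and the 4108 genes called over the whole table became 1799 without the first Early library and 1703 without the second. Lrrc17 rose by 1.76 ± 0.23 (log2, SE; 3.40-fold; adjusted p = 0.000648). Psg28 fell by 1.15 ± 0.18 (adjusted p = 0.00129), Smn1 by 1.00 ± 0.17 (adjusted p = 0.00179) and Gm14403 by 0.72 ± 0.17 (adjusted p = 0.00741). Libraries did not overlap between Reactivated and Basal in 6 of the 17 genes, against 45.8% of all genes, and between Reactivated and Early in 4, against 39.1%. The Early libraries enter this comparison and the one with Basal, and the Reactivated libraries enter both of theirs, so the 3 comparisons are not independent. 12 of the 17 genes passed in none of the 3; among them Fut8 had log2 differences of 0.03, 0.04 and 0.02 and B020014A21Rik of 0.01, -0.02 and -0.03 in the order given.

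**Figure D3:**
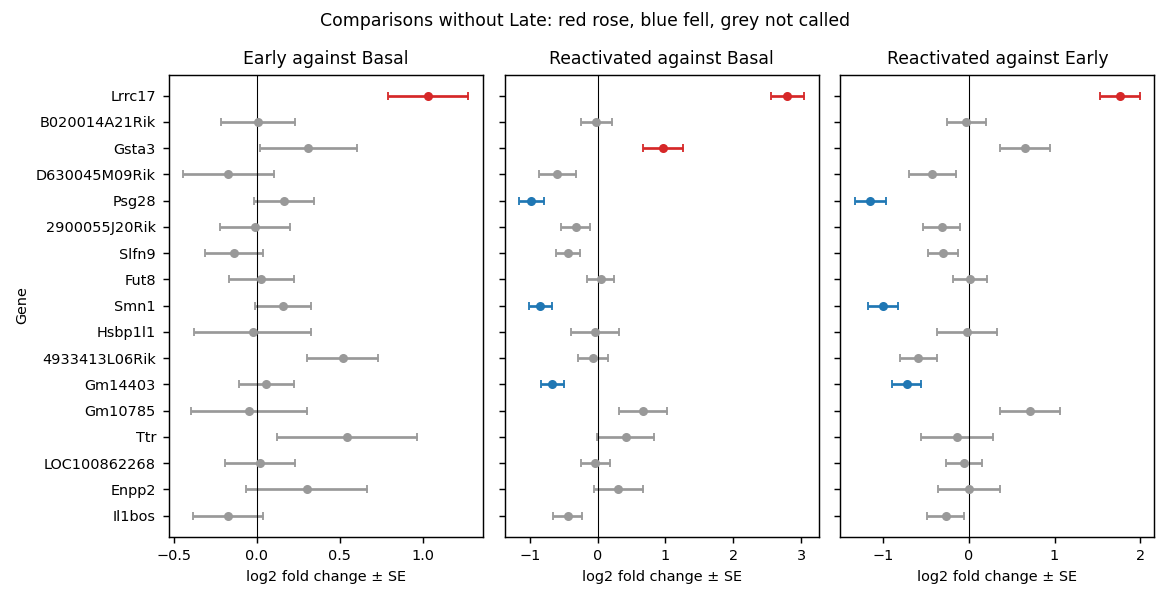
Log2 fold changes with standard errors for the 17 genes in the 3 comparisons without Late, from edgeR's fit to all genes; red genes rose, blue fell and grey did not pass an adjusted p of 0.05. Lrrc17 is red in all 3 panels, and Psg28, Smn1 and Gm14403 are blue in both panels with Reactivated.

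The median log2 difference of the 17 genes was 0.03 for Early against Basal, -0.04 for Reactivated against Basal and -0.13 for Reactivated against Early, beside 0.01, 0.02 and 0.03 over all genes tested. In 9 of the 17 genes the 3 other means lay within 1.5 times of one another, and in 8 they did not. By the largest of these means, 5 genes were highest in Reactivated, 7 in Early and 5 in Basal. By the smallest, 11 of the 17 were lowest in Reactivated. Some of these orders rest on small gaps: 12 of the 17 genes passed in no comparison. The means of B020014A21Rik, for 1, differed by 1.02 times at most.

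Relatives of the set's genes were then counted in Late, where 23.7% of all genes tested were lower and 25.4% higher than in Basal, 20.3% and 22.0% than in Early, and 10.3% and 12.3% than in Reactivated. Of 14 other glutathione transferases and prostaglandin synthases tested, 0 rose and 3 fell against Basal, namely Gstm1 (-1.36 ± 0.39, adjusted p = 0.00963), Gstm2 (-2.46 ± 0.59, adjusted p = 0.00319) and the prostaglandin E synthase Ptges (-1.36 ± 0.35, adjusted p = 0.00494; log2, SE, edgeR). Against Early 2 of 14 fell, and against Reactivated Hpgds rose by 1.05 and Gstm1 fell by 1.54. Without the first Late library the lower genes numbered 1 against Early and 0 against Reactivated, without the first Early library 1 against Early, and without the first or second Reactivated library 2 and 4 against Reactivated. Scaling by plain library totals gave 8, 8 and 6 lower genes in the 3 comparisons; it moves the median of all genes by -0.84, -0.75 and -0.36 in these comparisons and by -0.48 for Reactivated against Basal. Of 19 genes of glutathione synthesis and redox enzymes, 4 rose and 4 fell in Late against Basal. From Basal to Reactivated, 3 of the 15 genes of the transferase list rose and 2 fell, beside 20.6% of all genes higher and 18.8% lower. Those that rose were Gsta3, Gsta4 (1.69, adjusted p = 0.0450) and Gstp1 (1.45, adjusted p = 0.0221). Gsta4 was at 63.3, 9.68 and 38.2 in Reactivated and at 11.7, 14.6 and 7.89 in Basal, so its libraries overlapped.

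Among 6 other Schlafen genes tested, Slfn8 left aside, 2 rose and 2 fell in Late against Basal. Slfn5, next to Slfn9 in the RefSeq gene order, went opposite to it: its Late libraries were at 1188, 1008 and 958, against 521, 405 and 343 in the Basal libraries, 475, 455 and 377 in the Early ones and 346, 411 and 305 in the Reactivated ones. Slfn5 rose in Late by 1.32 ± 0.17 against Basal (adjusted p = 3.25e-05), by 1.27 ± 0.17 against Early (adjusted p = 5.86e-05) and by 1.57 ± 0.18 against Reactivated (adjusted p = 1.93e-05), with the first 2 calls lost at plain library totals (0.45 and 0.49). Slfn14 rose by 2.38 (adjusted p = 0.00483) against Basal, and the pseudogene Slfn10-ps fell by 1.34, 1.34 and 1.35 against Basal, Early and Reactivated (adjusted p = 0.0167, 0.0188 and 0.0327). Slfn8, the other neighbour of Slfn9, had Late differences of -3.92 ± 0.51, -4.28 ± 0.51 and -1.99 ± 0.56, given without a test because it was named for this pattern. The 3 Slfn10-ps calls were lost without the first Late library, and the call against Reactivated without any 1 of the 3 Late libraries. Of 21 interferon-stimulated genes tested, 5 rose and 8 fell against Basal, 5 rose and 5 fell against Early, and 7 rose and 1 fell against Reactivated. In Reactivated itself, 1 of the 21 rose and 10 fell against Basal, beside 20.6% and 18.8% of all genes.

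The next 4 families and the interleukin-1 family were listed after values had been seen. Of 4 other Psg genes tested, 0 rose and 3 fell in Late against Basal: Psg16 (-1.76), Psg23 (-1.32) and Psg29 (-1.19), with adjusted p of 0.00232, 0.000109 and 0.00759. The same 3 fell against Early, while against Reactivated 1 fell, Psg29 (-1.01, adjusted p = 0.0395), a call lost without any 1 of the 3 Late libraries, the second Early library, or the first or second Reactivated library. Of 16 SMN complex and Sm protein genes, 1 rose and 2 fell against Basal; Strap rose by 0.46 and Ddx20 and Snrpf fell by 0.60 and 2.08. Of 14 other fucosylation genes, 4 rose and 3 fell against Basal, with Fut1 higher by 2.08 (adjusted p = 0.000543) and Fut10 lower by 2.08 (adjusted p = 0.00666). Of 4 other Enpp genes, 2 rose and 1 fell in each of the 3 Late comparisons. Of 5 interleukin-1 family genes tested, relatives of the gene that Il1bos overlaps, 1 rose and 4 fell in Late against Basal, 1 rose and 3 fell against Early, and 1 rose and 0 fell against Reactivated. The receptor antagonist gene Il1rn rose by 1.86 (adjusted p = 6.62e-05) against Basal, while the receptor genes Il1r1 (-3.46), Il1rap (-2.03) and Il1rl1 (-1.19) and the cytokine gene Il18 (-2.63) fell. Of 16 other secreted leucine-rich repeat genes, 6 rose and 3 fell against Basal.

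Since Ttr and Enpp2 are choroid plexus genes, other genes of that epithelium, also listed after values had been seen, were read beside them. Of 18 tested, 3 rose and 7 fell in Late against Basal, 3 rose and 5 fell against Early, and 2 rose and 11 fell against Reactivated, beside 23.7%, 20.3% and 10.3% of all genes lower. The last count was 5 without the first Late library, and library totals gave 13 lower against Basal and 10 against Early. The calcium channel gene Trpv4 was at 2.40, 2.64 and 1.87 in Late, against 9.07, 25.8 and 27.99 in the Basal libraries, 14.6, 13.8 and 11.7 in the Early ones and 60.6, 46.6 and 66.6 in the Reactivated ones. Trpv4 fell in Late in all 3 comparisons, with log2 differences (± SE) of -3.18 ± 0.54 from Basal, -2.50 ± 0.56 from Early and -4.603 ± 0.52 from Reactivated. Such low Late levels rest on few reads and are limited by depth. All Reactivated libraries of Trpv4 also lay above all its Basal ones. The bicarbonate transporter gene Slc4a5 fell likewise (-2.85 ± 0.43, -2.34 ± 0.43 and -3.22 ± 0.42), as did the coagulation factor gene F5 (-2.89, -2.95 and -3.24). Slc4a5 and F5 themselves met the rule's fold of 4 (ratios 4.99 and 8.13) and missed only its floor of 50. Their fall in Late therefore repeats the pattern that chose the set and is not independent of it. It rests on 16 Late reads for Slc4a5 and 14 for F5. The choroid-enriched Kl, by contrast, rose by 0.76, 0.64 and 1.24. The median log2 difference of the 18 tested genes in Late was -1.34 from Basal, -1.04 from Early and -2.32 from Reactivated. With Ttr and Enpp2 counted, 4 of 20 tested genes rose and 1 fell from Basal to Reactivated, beside 20.6% and 18.8% of all genes. The summed level of 20 choroid genes other than Ttr and Enpp2 was 1182 to 1269 in Late, within the range of the other libraries, 858 to 1754. Kl, at 338 to 353, and Prlr, at 383 to 404, were the largest parts of the Late sum, so it says little about the other genes. The part of choroid plexus RNA in the Ttr and Enpp2 levels was not tested.

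**Figure D4:**
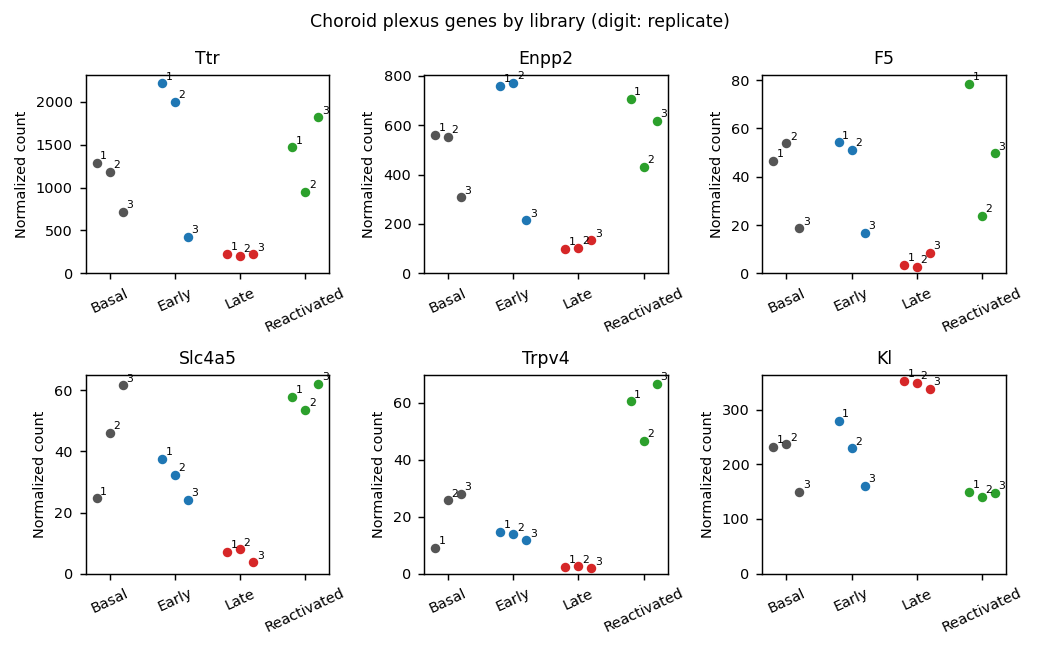
Normalized counts of Ttr, Enpp2, F5, Slc4a5, Trpv4 and Kl in each library, with the replicate number beside each point. The 3 Late libraries are lowest for Ttr, Enpp2, F5, Slc4a5 and Trpv4 and highest for Kl, and the third Early library is the lowest of Early for Ttr and Enpp2. F5 and Slc4a5 met the rule's fold of 4 and missed only its floor of 50.

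The neighbours of the set's genes in the RefSeq gene order were counted in Late as well. Slfn8 was left out of the counts because it was named for this pattern, being lower in Late than in each other group. Among 33 tested genes other than Slfn8 that overlap a gene of the set, lie next to it or share its RefSeq entry, the median log2 difference of Late against Basal was 0.05, 6 were higher in Late in all 3 comparisons against 8.88% of all genes, and 0 were lower in all 3 against 4.81%. Those 6 were Ppp1r14c, Gm4956, Mill1, Slfn5, Itsn1 and Gm14023, of which Gm14023, beside Il1bos, differed most, by 4.24 ± 0.45 against Basal (adjusted p = 4.51e-06). Gm14322, next to Gm14403, fell by 1.79 ± 0.17 against Basal and by 1.76 ± 0.17 against Early (adjusted p = 1.48e-06 and 2.13e-06), and differed by -0.42 ± 0.17 from Reactivated (adjusted p = 0.0843).

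Some names of the set stand on shared or overlapping sequence. RefSeq gives 2900055J20Rik as an older symbol of Kctd16, a GABA-B receptor subunit gene, but the table has both rows: Kctd16 was at 539 to 649 in Basal and 594 to 737 in Late, and differed by 0.14 ± 0.16 (adjusted p = 0.488). Lrrc17 lies within the span of Fbxl13, which was too low to test at 0 to 9.39 in the 12 libraries, and Il1bos overlaps Il1b, likewise untested at 0 to 3.89. Gm10785 overlaps Donson and Cryzl1, which were tested. Donson differed in Late from Basal by 0.02 ± 0.14 (edgeR, adjusted p = 0.907). Cryzl1 fell in Late by 0.86 ± 0.21 against Basal (adjusted p = 0.00387) and by 0.74 ± 0.21 against Early (adjusted p = 0.0111). It differed by -0.12 ± 0.21 from Reactivated (adjusted p = 0.742). The strand setting of the counting is not given in the sources used here, so reads of overlapping genes cannot be told apart.

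**Figure D5:**
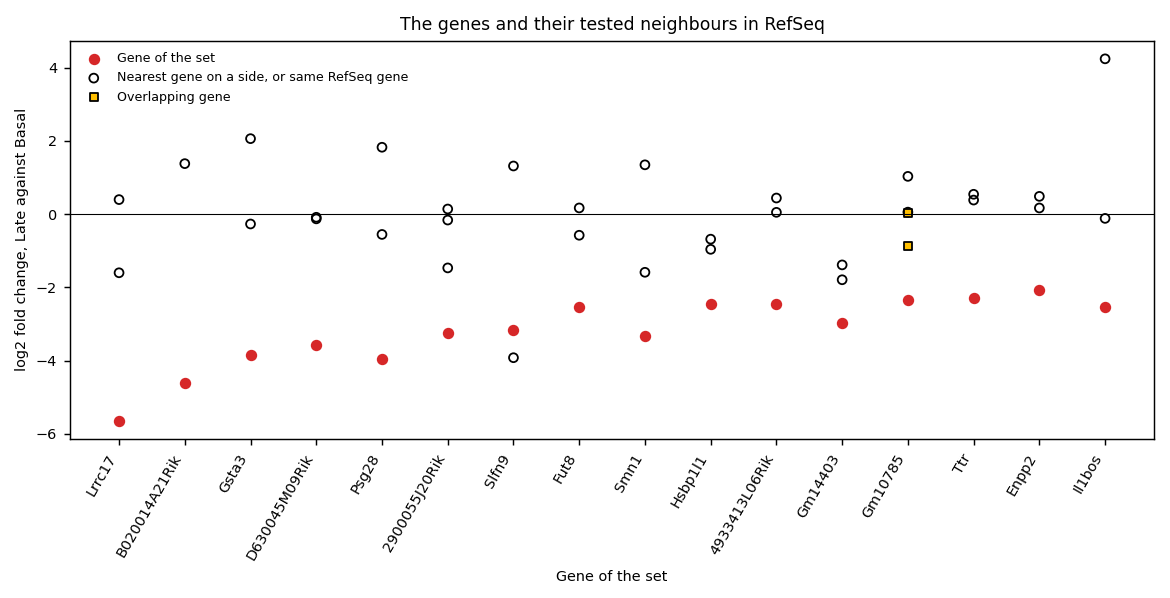
Log2 fold change of Late against Basal for 16 of the 17 genes and for the tested genes that overlap or adjoin them in RefSeq. The genes of the set lie low by construction, and their neighbours spread around 0 with a median of 0.05 without Slfn8, the lowest open point, drawn in the Slfn9 column.

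Of the transcript sequence of the genes, in runs of 31 bases of GENCODE M21, a median of 4.59% was shared with another gene in the 15 genes that matched, against 1.49% over all matched genes tested. More than 10% was shared in 33.3% of these genes and in 21.4% of all genes. Gm14403 shared 57.0%, and Psg28 50.03%, most of it with Psg26 (36.1%), so the counts of both are uncertain between copies. B020014A21Rik shared 27.8%, most with 9230019H11Rik (25.8%), which it overlaps. Gm10785 shared 26.7%, most with Cryzl1 (21.5%), and Slfn9 24.6%, most with Slfn10-ps (14.3%). Smn1 and Ttr shared 0. The median GC content of the longest transcripts was 44.5% against 49.6%, and their median length 1938 bases against 3359.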

How the data were processed

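The authors deposited 1 table of gene counts for 12 libraries of nuclear RNA. Its name calls it normalized, but its values are whole numbers with differing totals, so they were treated as counts. Per the submitters' processing notes, Bowtie2 2.0, Cufflinks 2.2 and DESeq2 were used with the mm9 build. Per the labels' protocols a stranded total RNA kit with 15 PCR cycles was used; the design text names another protocol. Genes with 10 or more counts in at least 3 libraries were fitted with edgeR 4.0.16 (R 4.3.3; TMM scaling, quasi-likelihood test, 4 group means over all 12 libraries, Benjamini-Hochberg adjustment, threshold 0.05), a procedure tested on simulated data. The standard error is the fold change over the square root of F. Total counts of 4838166 to 11120255 set the counting error of low genes.

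Members and gene lists were chosen with earlier results of these data known, with 17 lists set first and 6 added after values were seen. Named genes were Lrrc17, Gsta3, Slfn8, the 20 largest ratios (unnamed gene models counted, not ranked), up to 10 called without Late, 3 on either side of the limit, and up to 4 called genes per list; other members, relatives and neighbours were named after their values were seen. The labels call the pools biological replicates, and p-values measure the spread between them. Deviations from the group means correlated over 0.1 in all 3 same-numbered pairs of Basal and Early (0.55, 0.24 and 0.65) and of Late and Reactivated (0.12, 0.12 and 0.29), and in no other same-numbered pair. Pairs of different number ran from -0.59 (Basal 1 and Early 3) to 0.36 (Basal 1 and Early 2), with Early 1 and Late 3 at 0.24. Whether the numbers pair any groups was therefore not settled. Gene order and promoters came from RefSeq GRCm38.p6 and transcripts from GENCODE M21, neither the build of the counts. Alternatives were other scalings, filters, tools, limits of the rule, a replicate block and leaving out each library; leaving out Basal 3 and Early 3 together, and all alternatives for lists, were chosen after seeing the data. One neighbouring gene is not reported here and is left out of the neighbour counts.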

Additional observations from a re-analysis of the deposited data

How the results depend on the processing

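The set held 17 genes as reported, 41 with plain library totals, 36 with a fold limit of 3, 3 with a fold limit of 8 and 29 with a lowest mean of 25; leaving out 1 library at a time gave 16 to 20. Genes of the set called between Early and Basal numbered 1, but 0 with limma-trend and 0 without Basal 3 and Early 3 together, and 0 to 2 with 1 library left out. For Reactivated against Basal they numbered 5, with 8 at library totals, and 4 to 6 with 1 library left out. For Reactivated against Early they numbered 4, with 8 at library totals, 8 without Basal 3 and Early 3 together, and 4 to 7 with 1 library left out. Counts over all genes ranged with 1 library left out from 488 to 1224, from 4193 to 6613 and from 1703 to 4602 in the same order of comparisons; the last was 2629 with the 2 groups fitted alone, against 4108. The fit with the replicate block gave 8 genes of the set for Reactivated against Basal, 6 for Reactivated against Early and 1 for Early against Basal, where it changed no call; 8 of 12 libraries correlated best with one of their own number. The Lrrc17 difference between Early and Basal passed in 17 of 22 alternatives (adjusted p 0.00116 to 0.104) and was lost also without Basal 3 and Early 3 together (1.08, adjusted p = 0.0652); Gsta3 from Basal to Reactivated passed in 19 of 22. The other 8 calls of genes of the set passed in 22 of 22. Over all results and alternatives, 700 kept their direction and side of the threshold, 10 lost a call, 62 counts moved by over 1.5 times and 0 reversed; where values moved, the cause was not tested. Levels from a few reads, as for Lrrc17 in Late, are limited by depth.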
